A study of Mus musculus with 6 samples.

Results

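The antiviral interferon-stimulated genes (ISGs) are the genes that interferons switch on to make a cell hostile to viruses. A list of 44 genes of this response was followed by symbol, and its members are called ISGs here for short, the receptors included. It covers interferon receptors, STAT and IRF transcription factors, sensors of foreign nucleic acid, antiviral effectors and 1 chemokine. The IRG, GBP and schlafen families are left out. Of the 55536 genes in the deposited table, all 44 were found, and 43 had a mean estimated count of at least 10 over the libraries and were among the 14318 genes tested. Ifi44, with a mean of 7.5 counts (0.541, 0.273 and 0.396 CPM in DMSO and 0.499, 0.307 and 0.288 CPM in DSF), was the exception. RNA had been sequenced from 6 libraries of primary mouse OT-I T cells taken from lymph nodes, 3 labelled DMSO, the solvent, and 3 labelled DSF, which the series title gives as disulfiram. Exposure lasted 2 h in both groups. OT-I cells carry a transgenic T cell receptor that recognises an ovalbumin peptide, and both groups were labelled wildtype otherwise. The labels give no DSF concentration, no stimulation of the cells and no age of the mice. They call the libraries biological replicates but name no separate animals or cultures for them, so the p-values measure only the spread between these libraries.

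Type I interferons bind the paired receptor IFNAR1 and IFNAR2, whose kinases JAK1 and TYK2 phosphorylate STAT proteins. STAT2 and IRF9 act in the ISGF3 complex, which binds the interferon-stimulated response element (ISRE) in front of ISGs. Many ISGs are transcribed at a low level without added interferon.

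Library totals ran from 18082264 to 21893720 estimated counts, so that 3 counts, taken as the floor of detection, correspond to 0.136 to 0.166 CPM, a count scaled to library size. The deposited tables name the libraries by a letter and a number. The DMSO or DSF identity of each column rests on reading the authors' codes DO and DF as those treatments. Markers of the labelled cell type were present, with Cd8a at 411 ± 5.05 CPM in DMSO and 350 ± 5.64 CPM in DSF (mean ± SD, n = 3 each, as for all such values here) and Cd3e at 229 ± 10.9 and 218 ± 1.78 CPM. Cd4, the marker of the other main T cell lineage, was at 1.22 ± 0.0300 and 1.63 ± 0.411 CPM. These are bulk libraries, in which fewer cells of a type and less RNA per cell cannot be told apart.

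Most of the ISGs that differed between the groups were lower after DSF, and the receptor genes stood on the other side. Of the 43 genes tested, 23 were lower and 3 higher in DSF at an adjusted p under 0.05 (edgeR's quasi-likelihood test, Benjamini-Hochberg adjustment over all genes tested), and 17 passed in neither direction. The lower calls are 53.5% of the ISGs, against 11.3% of all genes tested, while 11.6% of all genes were called higher and 22.9% called in either direction. Signed values printed with an adjusted p are log2 fold changes of DSF over DMSO, with an approximate SE after the ± sign, and intervals are 95% intervals of the single gene, not adjusted. The median log2 fold change of the 43 was -0.25, against -0.0027 over all genes. In 24 ISGs every DSF library lay below every DMSO library, and in 4 every DSF library lay above, where 17.9% and 17.6% of all genes tested did so. The differences were small for most: 20 of the 23 lower genes had estimated falls of less than 2-fold, and Ifit1, Ifit3 and Ifit1bl1 had larger ones. The intervals of Ifit1 (-1.63 to -0.75) and Ifit1bl1 (-1.25 to -0.84) include a fall of 2-fold, and that of Ifit3 (-2.16 to -1.19) lies beyond it. Measured from the DMSO mean, the median ISG stood at -0.18, -0.20 and -0.28 log2 units in DSF libraries 1, 2 and 3, and at -0.01, -0.01 and 0.01 in the DMSO libraries. All 3 DSF libraries thus shared the shift.

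**Figure D1:**
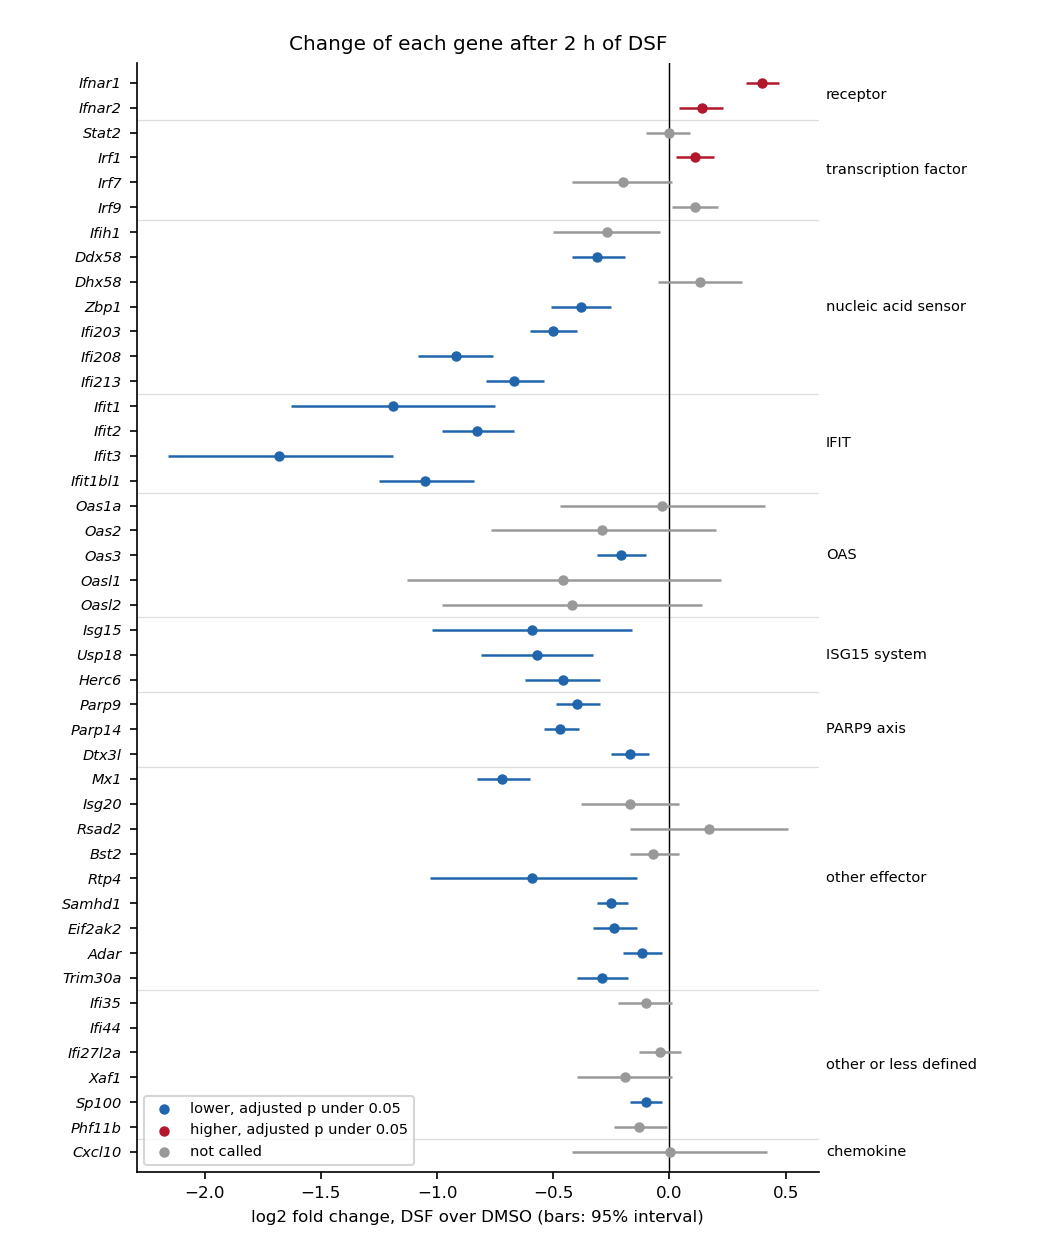
Log2 fold change (DSF over DMSO, x axis) of each of the 43 tested interferon-stimulated genes, grouped by role, with 95% intervals; colour marks genes called lower, called higher or not called by edgeR. Ifit3 (-1.68), Ifit1 (-1.19) and Ifit1bl1 (-1.05) reach furthest to the left, and Ifnar1 at 0.40 stands furthest to the right.

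The receptor genes rose. Ifnar1, the subunit that docks TYK2, was at 197, 201 and 204 CPM in DMSO libraries 1 to 3 and at 269, 267 and 261 CPM in the DSF libraries. The groups were well apart, with a spread within each that was small next to the gap between them. The log2 fold change was 0.40 ± 0.03 (approximate SE; edgeR adjusted p = 7.67e-11), a rise of 32.4%. Ifnar2, the subunit with the higher affinity for interferon, gave 79.6, 79.2 and 81.8 CPM in DMSO and 84.7, 88.7 and 90.8 CPM in DSF, a smaller difference of 0.14 ± 0.05 (edgeR adjusted p = 0.0318) with no overlap of the groups. The Ifnar2 call was lost in edgeR without DMSO library 1 (adjusted p = 0.0584), DMSO library 2 (0.0955), DSF library 2 (0.0866) or DSF library 3 (0.168), and under DESeq2 (adjusted p = 0.0635). Of the exons of Ifnar2, 9.5% overlap the predicted gene Gm21970 on the same strand, so part of its reads may belong to either.

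Of the 4 transcription factors of the list, 0 were called lower and 1 higher, where 11.3% and 11.6% of all genes tested were. Their log2 fold changes ran from -0.20 to 0.11. Irf1, which drives both interferon genes and ISGs, was called higher by a small margin, from 168, 173 and 170.3 CPM in DMSO to 177, 186 and 189 CPM in DSF (0.11 ± 0.04, edgeR adjusted p = 0.0315). Its groups did not overlap, but the call was lost without DMSO library 1 (adjusted p = 0.0639), DMSO library 3 (0.0604), DSF library 2 (0.113) or DSF library 3 (0.191). Stat2, the STAT subunit that ties IRF9 into ISGF3, was at 73.7, 76.2 and 76.7 CPM in DMSO and 76.1, 75.8 and 74.5 CPM in DSF. The Stat2 groups lay on top of each other, and the 95% interval of the log2 fold change ran from -0.10 to 0.09 (edgeR adjusted p = 0.989). Irf9, the DNA-binding subunit of ISGF3, was at 60.7 ± 3.30 CPM in DMSO and 65.6 ± 1.07 CPM in DSF and gave 0.11 (interval 0.01 to 0.21, edgeR adjusted p = 0.119). Irf7, the factor that amplifies interferon production and is itself strongly interferon-induced, was at 11.4 ± 1.52 and 9.94 ± 0.187 CPM and gave -0.20 (interval -0.42 to 0.01, edgeR adjusted p = 0.19). Irf9 and Irf7 were called without DMSO library 3 (higher, edgeR adjusted p = 0.0298) and without DMSO library 1 (lower, edgeR adjusted p = 0.0459), respectively.

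**Figure D2:**
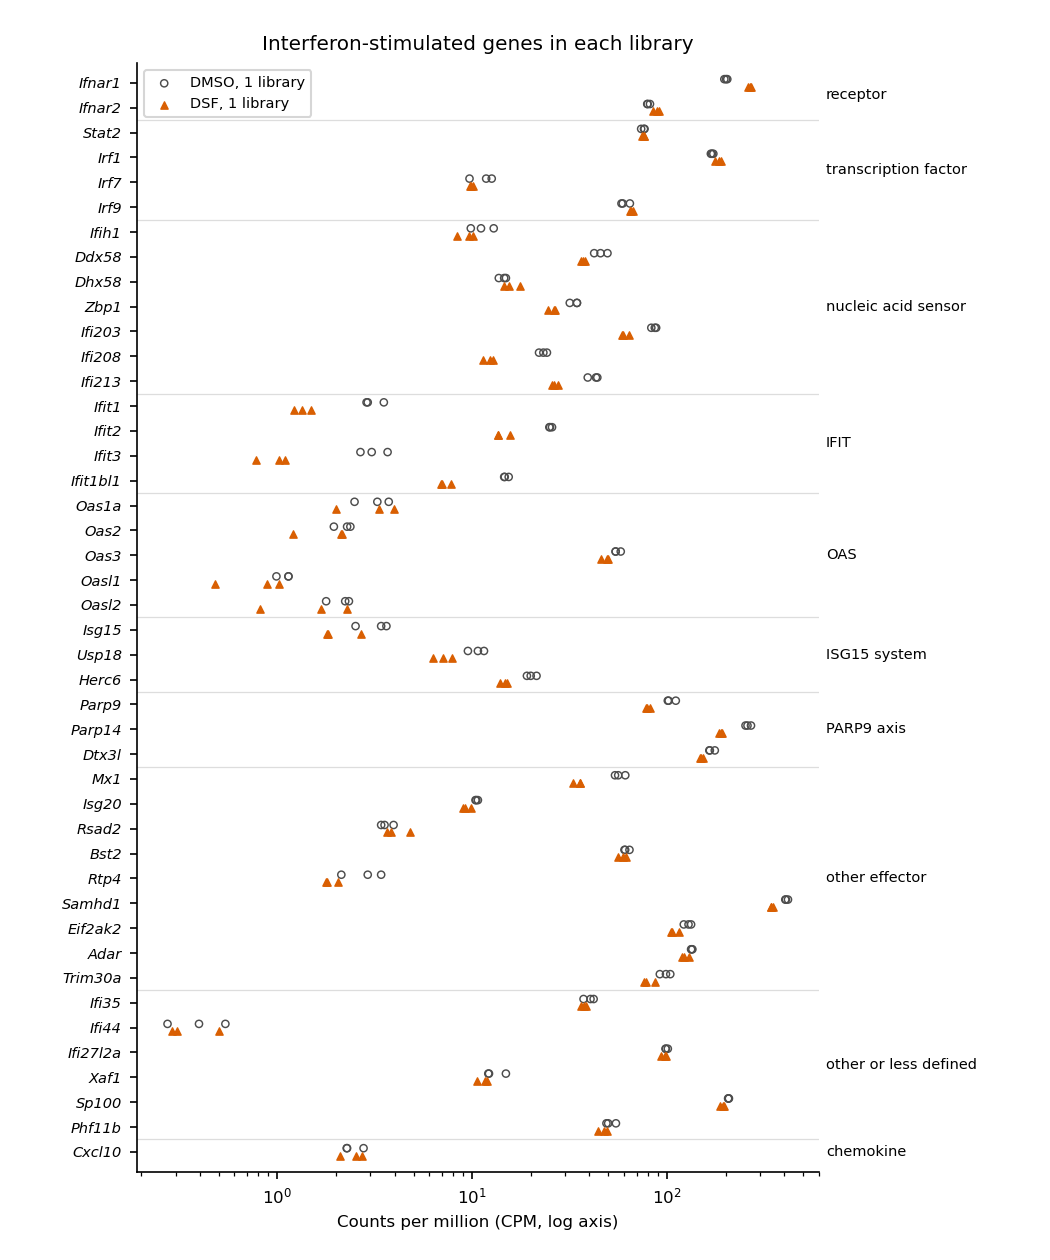
Level of each of the 44 genes in every library, in CPM on a log axis (x axis), with genes grouped by role, open circles for the 3 DMSO libraries and filled triangles for the 3 DSF libraries. The triangles of Ifnar1 lie to the right of its circles, those of Stat2 overlap them, and those of Ifit3, Ifit1bl1, Ifi208, Ifi213 and Mx1 lie to the left of all circles.

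Most nucleic acid sensors fell. Of 7, 5 were called lower and 0 higher, where 11.3% and 11.6% of all genes tested were. The largest falls were in the PYHIN (Ifi200) family, whose members carry DNA-binding HIN domains and lie in 1 cluster on chromosome 1. Ifi208 (chr1:173673675-173698395, GRCm38) was at 22.04, 24.2 and 23.2 CPM in DMSO and 11.4, 12.4 and 12.8 CPM in DSF. Every DSF library was far below every DMSO library (-0.92 ± 0.08, edgeR adjusted p = 1.1e-10). Its neighbour Ifi213 (chr1:173566283-173599274) went from 43.2, 39.2 and 43.9 CPM to 26.2, 27.7 and 25.6 CPM (-0.67 ± 0.06, edgeR adjusted p = 5.03e-10). Ifi203 (chr1:173920407-173942672) went from 87.99, 83.1 and 86.6 CPM to 63.95, 59.1 and 59.6 CPM (-0.50 ± 0.05, edgeR adjusted p = 1.75e-09). All 3 PYHIN genes were separate between the groups, in the order Ifi208, Ifi213, Ifi203 from the largest to the smallest fall. Ifi208 and Ifi213 share 20.9% and 15.6% of their 50-base transcript stretches with other genes, and counts can be split between such copies. Summed with Ifi206, the pair fell by 0.63 on the log2 scale (edgeR adjusted p = 1.76e-12), while Ifi203 summed with Mndal and Ifi207 fell by 0.27 (edgeR adjusted p = 1.93e-06), less than Ifi203 alone.

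Among the other sensors, Zbp1, a receptor of Z-form nucleic acid that can start necroptosis, was at 31.7, 34.5 and 34.5 CPM in DMSO and 26.6, 24.6 and 26.2 CPM in DSF (-0.38 ± 0.06, edgeR adjusted p = 2.56e-05). Ddx58, which encodes the RNA sensor RIG-I, was at 49.5, 45.6 and 42.3 CPM and 37.2, 37.8 and 36.1 CPM (-0.31 ± 0.06, edgeR adjusted p = 0.000149). Neither overlapped between groups. Ifih1, which encodes the long double-stranded RNA sensor MDA5, had means of 11.3 ± 1.53 and 9.33 ± 0.916 CPM, a difference that did not pass (-0.27, interval -0.50 to -0.04, edgeR adjusted p = 0.0824), and was called lower without DMSO library 3 (adjusted p = 0.0342). Dhx58, the helicase LGP2 that modulates these sensors, was at 14.9, 14.6 and 13.7 CPM in DMSO and 17.5, 15.5 and 14.5 CPM in DSF and did not pass (0.13, interval -0.05 to 0.31, edgeR adjusted p = 0.331). The DSF values of Dhx58 lay among or above those of DMSO, unlike those of Ddx58.

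Ifit3, Ifit1 and Ifit1bl1 had the largest falls of the list, and the fourth IFIT gene, Ifit2, came after Ifi208. IFIT genes encode tetratricopeptide-repeat proteins that bind viral RNA lacking the host cap marks, and they sit in a row on chromosome 19 from chr19:34550694-34576419 for Ifit2 to chr19:34640871-34650009 for Ifit1. All 4 members were called lower and all 4 were separate between groups. Ifit3 (chr19:34583531-34588731) was at 3.68, 3.05 and 2.67 CPM in DMSO and 0.776, 1.02 and 1.10 CPM in DSF. The lowest DMSO library was still well over the highest DSF library (-1.68 ± 0.24, 95% interval -2.16 to -1.19, edgeR adjusted p = 2.1e-06), and only 16 of the 14318 genes had a lower log2 fold change. Ifit1, which binds RNA without the cap methylation of host messages, was at 3.52, 2.91 and 2.87 CPM and 1.22, 1.48 and 1.34 CPM (-1.19 ± 0.22, interval -1.63 to -0.75, edgeR adjusted p = 8.49e-05). Ifit1bl1 (chr19:34592891-34601956), an Ifit1-like gene of the mouse cluster, was at 14.6, 14.7 and 15.4 CPM and 7.81, 6.91 and 6.96 CPM (-1.05 ± 0.10, edgeR adjusted p = 1.04e-09). Ifit2, which also takes part in cell death, had the smallest fall of the row, from 25.7, 24.9 and 25.1 CPM to 15.6, 13.6 and 13.6 CPM (-0.83 ± 0.08, edgeR adjusted p = 4.3e-10). The intervals of Ifit3 and Ifit1 overlap, so their order is not set by these libraries. Ifit3 shares 51.2% of its 50-base stretches with Ifit3b, and their sum fell by 1.70 on the log2 scale (edgeR adjusted p = 8.9e-07). Ifit1 summed with Ifit1bl1 and Ifit1bl2 fell by 1.05 (edgeR adjusted p = 8.86e-11).

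Promoter sequences are shown for the called genes with the smallest p whose upstream bases hold the core letters of the ISRE, the element that ISGF3 and IRF factors bind. Ifi203 was passed over, because its window runs into an annotated exon, and only its match is shown further on. They come from RefSeq (GRCm38.p6), run 5′ to 3′ in the direction of the gene from 210 to 11 bases before its start, and carry the matches to GAAA, any 2 bases, GAAA, on either strand, in capitals. A match on the opposite strand appears as TTTC, 2 bases, TTTC. The windows are, in order, chr1:173673455-173673654 (plus strand), chr1:173599283-173599482 (minus strand), chr19:34601979-34602178 (minus strand) and chr19:34583319-34583518 (plus strand).
Ifi208: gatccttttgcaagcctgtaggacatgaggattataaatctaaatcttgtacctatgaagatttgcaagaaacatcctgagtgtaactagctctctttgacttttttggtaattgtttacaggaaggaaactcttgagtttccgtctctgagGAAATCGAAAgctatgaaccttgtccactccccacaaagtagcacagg
Ifi213: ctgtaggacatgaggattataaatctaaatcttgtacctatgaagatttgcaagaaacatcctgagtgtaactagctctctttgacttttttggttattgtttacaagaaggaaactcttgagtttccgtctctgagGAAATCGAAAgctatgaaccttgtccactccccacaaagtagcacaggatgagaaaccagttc
Ifit1bl1: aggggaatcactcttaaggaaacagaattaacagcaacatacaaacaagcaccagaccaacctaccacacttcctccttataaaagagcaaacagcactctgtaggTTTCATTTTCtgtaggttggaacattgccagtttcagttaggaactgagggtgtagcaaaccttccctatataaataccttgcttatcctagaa
Ifit3: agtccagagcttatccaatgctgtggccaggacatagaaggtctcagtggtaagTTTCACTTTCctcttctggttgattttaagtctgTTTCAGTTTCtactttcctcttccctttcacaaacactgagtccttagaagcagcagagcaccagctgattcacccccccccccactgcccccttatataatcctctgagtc
Compared over the full 250 bases upstream, of which 200 are printed, Ifi208 and Ifi213 are near copies, identical at 233 of 235 aligned bases when shifted by 15 bases, and they hold the same match GAAATCGAAA. Every other pair of these promoters was identical at 31.8 to 33.9% of aligned bases. Each figure is the best of many shifts without gaps, a choice that raises it. No level for unrelated sequence was computed, so the lower figures do not show likeness. Ifit3 holds 2 matches, Ifit1bl1 holds 1. These letters describe the sequence only, and no binding was measured.

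Of the 44 genes, 35 have a promoter in the RefSeq table. The ISRE letters stood within 250 bases upstream in 15 of them (42.9%), against 3.33% of the 10132 tested genes with a promoter. The letters of the gamma-activated sequence, a STAT-binding element, TTCNNNGAA on either strand, stood in 8 (22.9%), against 7.17%. Matches stood in front of genes that fell and of genes that did not pass. Of the 15 genes with the ISRE letters, 9 were called lower and 0 higher, with a median log2 fold change of -0.29. Of the 19 tested genes with a promoter and no match, 8 were lower and 3 higher, with a median of -0.19. Among all genes tested, with or without the letters, 11.3% were lower and 11.6% higher. Some of the 10-letter matches recur on both sides of the threshold, and others do not. Within the list, GAAATCGAAA is found only in front of Ifi203, Ifi208 and Ifi213, and GAAAACGAAA only in front of Oas3, all called lower. The matches of Isg15, also lower, are found in front of no other listed gene. GAAATGGAAA is found only in front of Oas1a, which was not called. Short stretches of called and uncalled genes follow, with matches again in capitals and each written in the direction of its gene.
Ifit1 (called lower, chr19:34640785-34640814): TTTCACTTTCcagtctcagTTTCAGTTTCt
Isg15 (called lower, chr4:156200871-156200900): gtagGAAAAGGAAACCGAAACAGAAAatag
Ifi203 (called lower, chr1:173942508-173942537): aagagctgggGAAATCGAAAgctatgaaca
Stat2 (not called, chr10:128270266-128270295): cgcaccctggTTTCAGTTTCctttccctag
Bst2 (not called, chr8:71537580-71537609): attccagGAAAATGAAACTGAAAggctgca
Rsad2 (not called, chr12:26456553-26456582): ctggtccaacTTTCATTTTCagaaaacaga
Cxcl10 (not called, chr5:92349083-92349112): tcacgctttgGAAAGTGAAActtacctcac
GAAACTGAAA, or its complement, is found in front of Ifit1 and Ifit3 and also of Stat2 and Bst2. GAAAATGAAA is found in front of Ifit1bl1 and of Rsad2, and GAAAGTGAAA in front of Ifit1, Ifit3 and Cxcl10.

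The OAS family, whose enzymes make 2′-5′ oligoadenylate on double-stranded RNA and so activate RNase L, gave 1 call among 5. Over all genes tested, 22.9% were called in either direction. Oas3, the largest of these enzymes and at 16.7 TPM (a level corrected for gene length) the most abundant in DMSO, was at 54.5, 54.5 and 57.9 CPM in DMSO and 49.6, 49.3 and 45.9 CPM in DSF (-0.21 ± 0.05, edgeR adjusted p = 0.00322) with no overlap. The others were scarce, at 0.887 to 2.38 TPM, and did not pass. Oas2 was at 1.95, 2.37 and 2.28 CPM in DMSO and 2.11, 2.15 and 1.2 CPM in DSF and gave -0.29 (interval -0.77 to 0.20, edgeR adjusted p = 0.453), and the OAS-like genes Oasl1 (1.09 ± 0.0854 to 0.797 ± 0.283 CPM) and Oasl2 (2.11 ± 0.292 to 1.59 ± 0.731 CPM) gave -0.46 and -0.42 (edgeR adjusted p = 0.374 and 0.319). Oas1a was at 2.49, 3.73 and 3.26 CPM and 2.00, 3.99 and 3.31 CPM, with the spread within each group larger than the difference between them (-0.03, interval -0.47 to 0.41, edgeR adjusted p = 0.947). Oas1a shares 57.6% of its 50-base stretches with Oas1g and Oas1b, the highest share of the list. Summed over these 3 genes, an alternative chosen after the data were seen, the levels were 19.1, 20.5 and 20.4 CPM in DMSO and 13.9, 17.8 and 18.4 CPM in DSF, and the sum was called lower (-0.26 ± 0.09, edgeR adjusted p = 0.0313). The 95% intervals of Oas2, Oasl1 and Oasl2 reach down to -0.77, -1.13 and -0.98, so these libraries leave room in them for a fall as large as that of Ifi203 (-0.50).

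The ISG15 system fell in all 3 of its genes. Isg15 encodes a ubiquitin-like modifier, Herc6 the mouse ligase that attaches it and Usp18 the protease that removes it, which also blocks signalling at IFNAR2. Usp18 was at 11.5, 9.51 and 10.7 CPM in DMSO and 6.32, 7.06 and 7.87 CPM in DSF (-0.57 ± 0.12, edgeR adjusted p = 0.000369). Herc6 was at 21.4, 19.1 and 19.98 CPM and 13.9, 15.1 and 14.8 CPM (-0.46 ± 0.08, edgeR adjusted p = 3.52e-05). Both were separate between groups. Herc6 overlaps the gene Gm45193 on the same strand in 13.7% of its exon bases, so part of its reads may belong to either. Isg15 was at 3.63, 3.41 and 2.52 CPM and 1.83, 1.79 and 2.69 CPM (-0.59 ± 0.21, edgeR adjusted p = 0.0408), and here DSF library 3 lay inside the DMSO range. The Isg15 call was lost under DESeq2 (adjusted p = 0.19) and in edgeR without DMSO library 1 (adjusted p = 0.16) or 2 (0.148), or DSF library 1 (0.15) or 2 (0.176).

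Parp9, Parp14 and Dtx3l, neighbours on chromosome 16, all fell. PARP9 and the ubiquitin ligase DTX3L act as a complex that strengthens interferon signalling, and PARP14 is an ADP-ribosyltransferase. Parp14 (chr16:35832874-35871544) was at 259, 253 and 270 CPM in DMSO and 189, 192 and 184 CPM in DSF, with narrow groups far apart (-0.47 ± 0.04, edgeR adjusted p = 7.95e-12). Parp9 (chr16:35938470-35972605) was at 111, 102 and 101 CPM and 81.9, 78.8 and 78.1 CPM (-0.40 ± 0.05, edgeR adjusted p = 8.16e-08). Dtx3l (chr16:35926511-35939151) fell by less, from 166, 165 and 176 CPM to 153, 149 and 148 CPM (-0.17 ± 0.04, edgeR adjusted p = 0.00113). The intervals of Dtx3l (-0.25 to -0.09) and Parp14 (-0.54 to -0.39) do not touch. Dtx3l and Parp9 lie head to head on opposite strands and overlap in 8.0% and 9.4% of their exon bases, and the labels do not say whether the counting used strand.

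Of 9 other effectors, 6 were called lower and 0 higher, where 11.3% and 11.6% of all genes tested were. Mx1, the dynamin-like GTPase that blocks influenza and related viruses, had the clearest fall, from 54.1, 56.2 and 61.1 CPM in DMSO to 33.03, 35.6 and 35.7 CPM in DSF (-0.72 ± 0.06, edgeR adjusted p = 8.3e-12). The highest DSF library lay far below the lowest DMSO library. Samhd1, the phosphohydrolase that depletes deoxynucleotides and is abundant in resting T cells, was at 408, 405 and 418 CPM and 349.7, 344 and 344 CPM. Its fall was small next to its level and still well outside the spread (-0.25 ± 0.03, edgeR adjusted p = 3.5e-07). Eif2ak2, the RNA-activated kinase PKR that stops translation, was at 133, 129 and 122 CPM and 115, 105 and 106 CPM (-0.24 ± 0.05, edgeR adjusted p = 0.000173). Trim30a, a TRIM-family protein, was at 104, 91.9 and 98.8 CPM and 86.6, 75.95 and 78.5 CPM (-0.29 ± 0.05, edgeR adjusted p = 0.000109). Both were separate between groups.

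The remaining effector calls were weak. Rtp4, a scarce gene of the list at 2.82 ± 0.647 CPM in DMSO and 1.87 ± 0.154 CPM in DSF, was called lower (-0.59 ± 0.22, edgeR adjusted p = 0.0485), and so was Adar, which edits double-stranded RNA, at 134 ± 0.983 and 124 ± 5.64 CPM (-0.12 ± 0.04, edgeR adjusted p = 0.0448). Each call was lost in 5 of the 6 fits that leave out 1 library. In edgeR the adjusted p of Rtp4 was 0.23 and 0.136 without DMSO libraries 1 and 2, and 0.0672, 0.136 and 0.14 without DSF libraries 1, 2 and 3. That of Adar was 0.0638, 0.0704 and 0.118 without DMSO libraries 1, 2 and 3, and 0.152 and 0.256 without DSF libraries 1 and 3. DESeq2 gave adjusted p = 0.218 for Rtp4 and 0.079 for Adar. Adar also overlaps Chrnb2 on the opposite strand, and Rtp4 overlaps Gm45338 on the same strand in 13.9% of its exon bases.

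Effectors that did not pass included abundant and scarce genes. Bst2, the tetherin that holds budding virions on the cell, was at 61.9 ± 1.98 CPM in DMSO and 59.1 ± 2.54 CPM in DSF (-0.07, interval -0.17 to 0.04, edgeR adjusted p = 0.404). The interval leaves out a fall as large as that of Samhd1 (-0.25). Isg20, an exonuclease of RNA, was at 10.7, 10.5 and 10.4 CPM and 8.98, 9.21 and 9.84 CPM, every DSF value below every DMSO value, without passing (-0.17, edgeR adjusted p = 0.267). Rsad2, which encodes viperin, an enzyme that makes a chain-terminating nucleotide, was at 3.95, 3.55 and 3.41 CPM and 4.82, 3.84 and 3.65 CPM (0.17, interval -0.17 to 0.51, edgeR adjusted p = 0.535). With counts about as low as those of Ifit1 and Ifit3, Rsad2 lay higher in its DSF mean, and its interval leaves out a fall of 2-fold.

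Of the 5 tested genes of less defined antiviral function, 1 was called, where 22.9% of all genes tested were. Sp100, a component of nuclear bodies, was lower by 6.76% (207 ± 1.15 CPM in DMSO, 193 ± 4.72 CPM in DSF, edgeR adjusted p = 0.0381). The Sp100 call was lost under DESeq2 (adjusted p = 0.0501) and in edgeR without DMSO library 2 (adjusted p = 0.0779) or 3 (0.1), or DSF library 1 (0.0926), 2 (0.0689) or 3 (0.234). Xaf1, a pro-apoptotic gene, was at 14.9, 12.1 and 12.2 CPM and 11.6, 11.98 and 10.6 CPM, with no overlap, and did not pass (-0.19, edgeR adjusted p = 0.188). Under the limma test on TPM, however, Xaf1 was called lower (adjusted p = 0.0108). The means of Ifi35 (39.9 ± 2.41 and 37.3 ± 1.19 CPM), Ifi27l2a (99.3 ± 1.28 and 96.5 ± 2.52 CPM) and Phf11b (51.2 ± 3.09 and 46.99 ± 2.53 CPM) differed by -0.10, -0.04 and -0.13 on the log2 scale (edgeR adjusted p = 0.227, 0.583 and 0.108). Phf11b shares 47.0% of its 50-base stretches with related genes, and summed with Phf11a and Phf11c it still did not pass (-0.12, edgeR adjusted p = 0.099). Cxcl10, the only chemokine of the list and an attractant of activated T cells, was at 2.27, 2.77 and 2.28 CPM in DMSO and 2.72, 2.10 and 2.54 CPM in DSF, with the groups overlapping fully (interval -0.42 to 0.42).

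**Figure D3:**
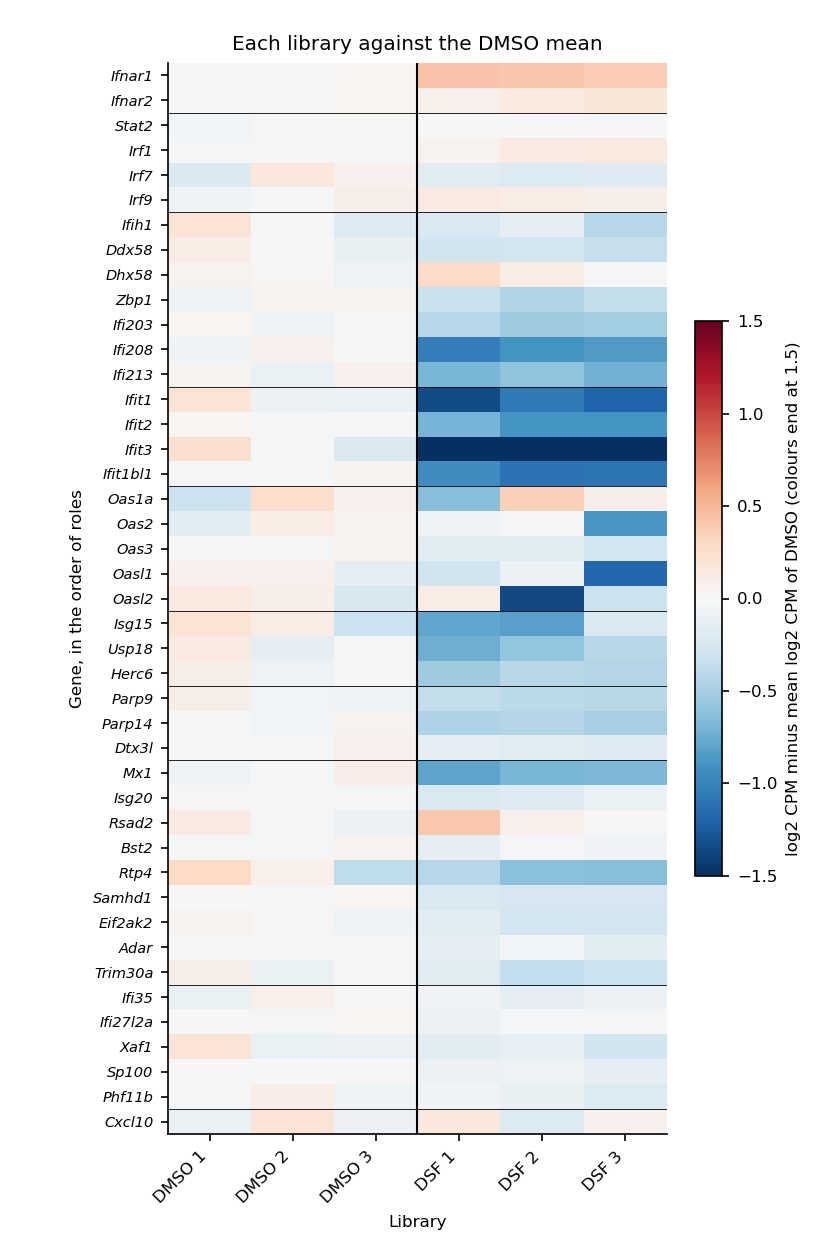
Colour map of each gene in each library, as the log2 difference from the gene's DMSO mean, with genes in rows grouped by role and the 3 DMSO and 3 DSF libraries in columns, and colours that end at 1.5. The IFIT, PYHIN, ISG15-system and PARP9 rows turn to lower values in all DSF columns, least so for Isg15 in DSF library 3 among the ISG15-system rows, while Ifnar1 turns to higher values.

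On the deposited scale that corrects for gene length, TPM, the most abundant of the 44 in DMSO was Ifi27l2a at 618 TPM, followed by Samhd1 at 258, Sp100 at 148, Bst2 at 144 and Irf1 at 115 TPM. Ifit2 was at 9.43, Ifit1bl1 at 9.38, Ifit3 at 2.56 and Ifit1 at 1.58 TPM, in the lower part of the list, and Ifi44 was last at 0.323 TPM. Errors were larger at low levels. Of 10 tested genes under 5 CPM 4 were called lower, with standard errors of 0.17 to 0.33 log2 units, and of 17 at or above 50 CPM 10 were lower and 3 higher, with standard errors of 0.03 to 0.05. In between, 9 of 16 were lower. Of the 10 tested genes that share at least 10% of their 50-base stretches with another gene 7 were lower, and of the other 33 16 were lower and 3 higher. Beside all these counts, 11.3% of all genes tested were lower and 11.6% higher, taken over all levels together.

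The rest of the pathway was read from lists of genes outside the 44. Of 14 interferon genes and receptors, 4 could be tested, 0 were lower and 3 higher, all of them receptor subunits. Over all genes tested, 11.3% were lower and 11.6% higher. Il10rb, a subunit of the type III interferon receptor, went from 66.5 ± 2.02 to 78.1 ± 2.99 CPM (0.23, edgeR adjusted p = 0.000469), Ifngr1 from 336 ± 17.2 to 367 ± 2.84 CPM (0.13, adjusted p = 0.00661), and Ifngr2 from 6.06 ± 0.430 to 8.10 ± 0.976 CPM (0.42, adjusted p = 0.0148). In edgeR the Ifngr1 call was lost without DMSO library 3 (adjusted p = 0.0539) and the Ifngr2 call without DMSO library 2 (0.0699) or DSF library 2 (0.123). The Ifngr2 call was also lost under DESeq2 (adjusted p = 0.0894) and limma on TPM (adjusted p = 0.0757). Ifnb1, Ifna1, Ifna2, Ifna4, Ifna5, Ifne, Ifnk, Ifnl2 and Ifnl3 were at 0 counts in all 6 libraries, which allows up to 0.136 to 0.166 CPM by library, and Ifnlr1, with a mean of 4.5 counts, was too low to test. Ifng, the type II interferon that T cells make, was at 69.4 ± 1.86 CPM in DMSO and 63.4 ± 4.21 CPM in DSF (-0.13, edgeR adjusted p = 0.067), and passed without DSF library 1 (adjusted p = 0.0185).

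Of 19 genes of interferon signal transduction and its brakes, 8 were lower and 3 higher, with a median of -0.06. Over all genes tested, 11.3% were lower and 11.6% higher. Irf8, a factor of myeloid and T cell programmes, fell from 331 ± 5.84 to 254 ± 5.58 CPM (-0.38, edgeR adjusted p = 1.49e-10) and Stat3, which serves cytokines such as interleukin 6, from 849 ± 19.4 to 691 ± 10.2 CPM (-0.30, edgeR adjusted p = 5.78e-09). Socs1, an inhibitor of JAK kinases, fell as well (-0.32, edgeR adjusted p = 7.32e-05). The kinase genes gave values near 0, with Jak1 at -0.04 (interval -0.10 to 0.03, edgeR adjusted p = 0.466) and Tyk2 at -0.02 (interval -0.11 to 0.07, edgeR adjusted p = 0.791).

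Of 21 tested genes of nucleic acid sensing upstream of interferon, 6 were lower and 2 higher, with a median of -0.12. The DNA-sensing pair was among the lower: Cgas, the enzyme that makes the second messenger cGAMP, went from 27.8 ± 2.31 to 20.1 ± 0.933 CPM (-0.47, edgeR adjusted p = 7.57e-06), and Tmem173, its receptor STING, from 94.6 ± 4.12 to 73.3 ± 2.03 CPM (-0.37, edgeR adjusted p = 4.29e-07). Traf3, a signalling adaptor of the same list, rose (0.29, edgeR adjusted p = 7.83e-06). Of 60 tested ISGs outside the 44, 30 were lower and 1 higher, with a median of -0.22, beside the 11.3% of all genes that were lower. Examples by smallest p were Ifi206, a further PYHIN gene (-0.48, edgeR adjusted p = 2.46e-08), and Lgals3bp, a secreted glycoprotein (-0.46, edgeR adjusted p = 2.03e-08). Ifi206 neighbours Ifi208 and shares sequence with it. The limma test on TPM called 15 of these ISGs lower, and 497 of the 14683 genes it tested, where edgeR had called 1621 of 14318.

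**Figure D4:**
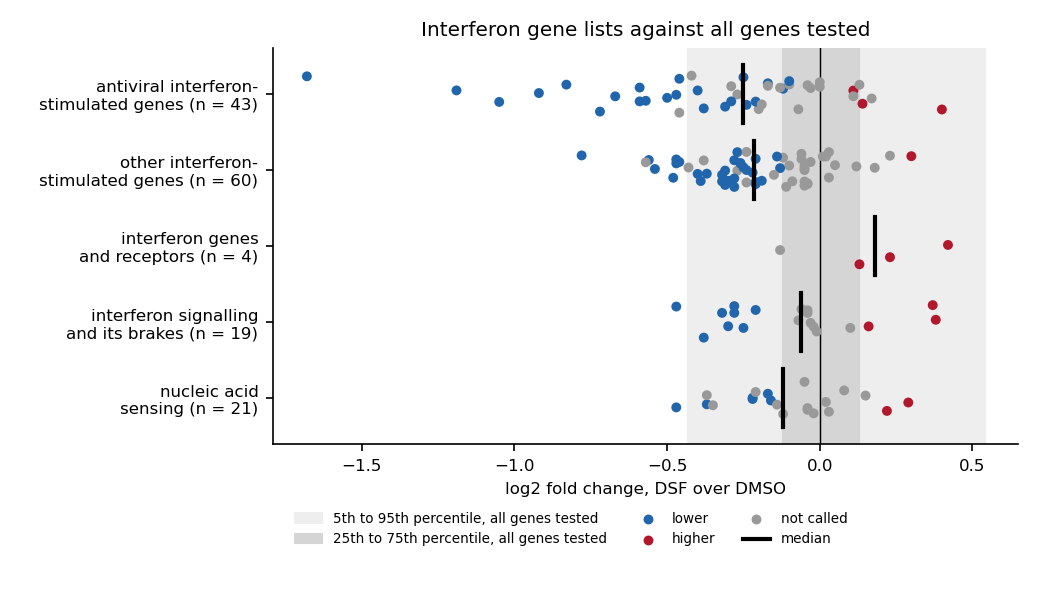
Log2 fold change (DSF over DMSO, x axis) of every tested gene of the antiviral ISGs and of 4 further pathway lists (rows), with a bar at each median, colour for the call, and grey bands for the 5th to 95th and 25th to 75th percentiles of all genes tested. The medians of the antiviral ISGs (-0.25) and of the other ISGs (-0.22) lie left of the inner band, whose lower edge is at -0.12.

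Marker genes of other cell types that express ISGs moved to different degrees beside these results. Their counts stand beside the shares over all genes tested, 11.3% lower and 11.6% higher. Of 10 plasmacytoid dendritic cell markers 5 could be tested and 1 was lower, Irf8, which made up most of their sum of 354 to 366 CPM in DMSO and 279 to 290.5 CPM in DSF. Siglech, a defining marker of that cell, was at 0 counts. Of 12 tested myeloid and dendritic markers 3 were lower, with sums of 179.7 to 188 and 159 to 174 CPM. These were Xcr1 (10.7 ± 1.59 to 5.38 ± 1.10 CPM, edgeR adjusted p = 2.73e-06), Clec10a (adjusted p = 0.0209) and Mpeg1 (adjusted p = 0.042), while Clec9a had at most 1 count in a library. The Mpeg1 call was lost under DESeq2 (adjusted p = 0.194), limma on TPM (0.327), and edgeR on dropping DMSO 1 (0.0826), DMSO 3 (0.177), DSF 1 (0.0603) or DSF 3 (0.246). The Clec10a call was lost under limma on TPM (adjusted p = 0.38) and edgeR without DMSO library 2 (0.182) or DSF library 1 (0.0611) or 3 (0.17). Of 3 tested natural killer markers 2 were lower, Eomes and Gzma, with sums of 49.3 to 51.3 and 39.6 to 41.8 CPM. Eomes made up most of these sums, at 43.01 ± 0.891 CPM in DMSO and 34.6 ± 1.87 CPM in DSF. Bulk libraries do not show which cells its reads came from. Klrb1c, the other natural killer marker tested, was at 2.92 ± 0.128 and 3.14 ± 0.611 CPM and was not called (0.10, edgeR adjusted p = 0.771). Ncr1, Klra8 and Klra4 had at most 4, 1 and 2 counts in a library. The Gzma call was lost under DESeq2 (adjusted p = 0.106), limma on TPM (0.071), and edgeR without DMSO library 1 (0.0952) or DSF library 1 (0.0599) or 3 (0.0958). Of 10 B cell markers 2 were lower, Ighm and Igkc, with sums of 262 to 277 and 247 to 261 CPM. The Igkc call was lost under DESeq2 (adjusted p = 0.207), with other filters or a fit that is not robust (0.0507 to 0.0634), and in edgeR on dropping DMSO 2 (0.0988), DMSO 3 (0.184), DSF 2 (0.142) or DSF 3 (0.181). The Ighm call was lost under limma on TPM (adjusted p = 0.295) and in edgeR without DSF library 3 (0.113). Of 3 tested CD4 T cell markers 1 was higher, Zbtb7b, with sums of 25.6 to 29.5 and 31.5 to 35.2 CPM, a call lost under limma on TPM (adjusted p = 0.93). Of 8 CD8 and general T cell markers 3 were lower, Cd8a among them, and 1 higher, with sums of 2315 to 2362 and 2168 to 2222 CPM. The part of these shifts in the ISG differences was not tested.

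Of the 26 calls among the 44 genes, 20 were kept in each of the 6 fits that leave out 1 library, and 16 (15 lower, and Ifnar1) were kept in all 15 alternatives planned. The limma test on log2(TPM + 0.5) ended the largest number of calls, including those of Oas3, Dtx3l, Eif2ak2 and Trim30a (adjusted p = 0.164, 0.158, 0.169 and 0.154).

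The authors' deposited table also gives comparisons with a group coded DC, which the labels do not explain and whose libraries were not analysed here. The comparisons share groups, so their values are only set side by side. For DF against DO, the authors' deposited table has 19 of the 43 genes lower and 2 higher, where 7.73% and 8.46% of the genes tested here are. In the authors' deposited table, 15 of the 43 genes are higher and 3 lower in DC than in DF, where 5.96% and 7.40% of the genes tested here are. Against DO, the authors' deposited table has 0 of the 43 higher and 5 lower in DC, where 0.147% and 0.503% of the genes are. For Ifit3 the authors' deposited table gives log2 fold changes of -1.69 for DF over DO, 1.30 for DC over DF and -0.38 for DC over DO. Mx1 has -0.71, 0.54 and -0.17 in the same columns of the authors' deposited table, and Ifit1bl1 has -1.04, 0.47 and -0.57. Ifnar1, the receptor gene, has 0.41, -0.46 and -0.05 in the authors' deposited table.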

How the data were processed

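Libraries of 3 DMSO and 3 DSF samples were built from total RNA with a SMARTER kit, per the labels' protocols, and the submitters' processing notes name the build GRCm38 (mm10). The sources used here do not give the aligner, the counter, the annotation release or the strandedness. The authors deposited an expected count and a TPM for each gene and library, per the file headers, and 12.1 to 12.9% of a library's counts are not whole. Further deposited columns hold the authors' log2 fold changes and adjusted p-values, per the file headers.

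Columns are named by a letter and a number, the number being taken as the replicate. In all 55536 genes the authors' mean TPM with the heading DO matches columns A, and DF matches columns B, to within 0.0001 TPM. Taking DO for DMSO and DF for DSF is a reading of the codes that no label states. The number of columns per library left unused was 0.

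The 44 genes, the lists and the tests were chosen with earlier results of these data known. All 44 are named. Each pathway list contributes the 3 called genes with the smallest p, plus Jak1, Tyk2, Ifnb1, Ifng and Socs1, and 1 gene that this rule takes in is not reported here. List counts include every listed gene. Interferon genes at 0 counts, markers and sites of uncalled genes were named after their values were seen. Cgas was matched through a synonym.

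Expected counts were rounded to whole numbers. The filter filterByExpr kept 14318 genes and removed 41218, and TMM factors lay between 0.99524 and 1.0053. The test was the robust quasi-likelihood fit of edgeR 4.0.16 (R 4.3.3) with a group term alone, at a biological coefficient of variation of 4.4%. Fold changes are DSF over DMSO, on the log2 scale. A gene was called where its Benjamini-Hochberg value fell under 0.05. The approximate SE is the size of the log2 fold change divided by the root of F, and 95% intervals follow from it. CPM are TMM-scaled. Totals per library were 18528236, 21893720 and 20149539 (DMSO) and 18082264, 19611354 and 20951998 (DSF). The 3-count floor covers counting error only. Replicates differed by more than counting error (chi-square per degree of freedom 2.16 to 4.01), and each was kept.

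Alternatives were DESeq2 1.42.0, other scalings and filters, a fit that is not robust, limma 3.58.1 on log2(TPM + 0.5) for genes with a mean of at least 0.5 TPM, a replicate block, and leaving out each library. Sums over paralogs were added after the data were seen. Positions and shared 50-base stretches came from GENCODE M21, promoters from RefSeq (GRCm38.p6). The promoter table has no entry for Dhx58, Zbp1, Oas2, Mx1, Usp18, Parp9, Parp14, Ifi27l2a and Rtp4. The pipeline was tested on simulated data.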

Additional observations from a re-analysis of the deposited data

How the results depend on the processing

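Of the 44 genes, 23 were lower and 3 higher, with a median of -0.25. Leaving out 1 library at a time gave 19 to 22 lower, 1 to 3 higher and medians of -0.27 to -0.20, the last without DSF replicate 3. DESeq2 called 19 lower. The limma test on TPM called 16 lower and 1 higher, and over all 14683 genes it tested 497 lower and 726 higher, against 1621 and 1655 of 14318 in edgeR. Those 16 include Xaf1, which edgeR did not call. For the pathway lists, the count of interferon genes and receptors called lower went from 0 to 1 (Ifng) without DSF replicate 1. Under limma on TPM, 0 signal transduction genes were higher, 2 sensing genes were lower and 1 higher, and 15 other ISGs were lower. The values of 4 genes that were not called changed sign. Stat2, at -0.0013, gave 7.4e-05 under DESeq2, 0.00086 with RLE factors, 0.0031 with a mean count of at least 10, 0.07 under limma on TPM and -0.02 to 0.01 without 1 library, with values above 0 of 0.0047, 0.01, 0.00011 and 0.0099. Oas1a gave -0.24 to 0.20 without 1 library, above 0 without DMSO replicate 2 (0.11) or DSF replicate 1 (0.20). Oas2, at -0.29, gave 0.0025 under limma on TPM. Cxcl10, at 0.00035, gave -0.0077 without composition factors, -0.0059 with upper quartile factors, -0.00094 with no filter, -0.02 under limma on TPM and -0.07 to 0.11 without 1 library. Of these 4 genes, none passed in any setting, apart from Oas1a summed with its paralogs (-0.26, edgeR adjusted p = 0.0313). The cause of these changes was not tested.

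The libraries share replicate numbers, but deviations of same-numbered libraries correlated at only 0.0349 to 0.0547, so the numbers were not taken to pair them, although each library correlated best with its own number. With a replicate block the 44 genes again gave 23 lower and 3 higher with a median of -0.25, interferon genes and receptors gave 1 lower (Ifng), and calls over all genes went from 3276 to 3829.

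Genes under 5 CPM have wide errors, and 3 libraries a group limit all tests. A call that fails does not show that levels were equal.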
